A study of Mus musculus with 4 samples.

Results

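Mouse chromosome 12 was followed from end to end in mammary tumour cells with and without the kinase Pak1, to see whether its genes were shifted evenly or in segments. Its members were the array probes that the files place on chromosome 12 (mm9 coordinates) and that were well above background on at least 2 of 4 arrays. Of 1493 probes placed there, 1002 met this rule, against 27229 of 39429 on the whole array. The chromosome was chosen from its measured shift between the groups, since its median was the lowest of 20 chromosomes in these same data. The medians, counts and shares over its probes are therefore a description with no test, and they support nothing beyond themselves.

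The 4 samples were cells grown from separate mammary tumours of MMTV-Neu mice. These mice carry Neu, the rodent form of the oncogene Her2 (gene Erbb2), under a viral promoter that is active in mammary epithelium. In 2 samples the tumours were Pak1 -/-, and in the other 2 they were Pak1 +/+. All 4 carried the Neu transgene, all were starved of serum for 3 h and then given EGF for 15 min, and the age of the mice was not given in the sources used here. Each sample was 1 array, so that fewer cells of a type and less RNA per cell cannot be told apart.

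Values are normalized log2 intensities, and a log2 difference is the mean of the Pak1 -/- arrays minus the mean of the Pak1 +/+ arrays. The Pak1 probe (chr7:105060220-105060279) read 12.21 and 12.25 in the samples labelled Pak1 -/- and 12.04 in both samples labelled Pak1 +/+. The log2 difference was 0.19 ± 0.07 (SE), with a limma adjusted p of 0.070, so the probe did not check the labels and every direction below rests on them. The arrays labelled Pak1 -/- lay at the first positions of the single slide and those labelled Pak1 +/+ after them, so position and genotype cannot be told apart. Of 8 mammary epithelial markers, 7 were well above background on all 4 arrays, keratins Krt8 and Krt18 among the brightest. They moved both ways, Cdh1 by 1.19 and Krt8 by 0.57, but Krt7 by -1.10 (limma adjusted p 0.00118, 0.00295 and 0.000564). Of 4 endothelial markers, Pecam1 and Kdr were above background on all 4 arrays, with differences of -0.09 and 0.04, and Tie1 on none, while 3 of 6 fibroblast markers (Col3a1, Dcn and Lum) were above it on none. The other fibroblast markers, Col1a1, Col1a2 and Pdgfra, were above it on all 4. Col1a1 was higher in Pak1 -/- cells by 1.12, while Col1a2 and Pdgfra differed by 0.03 and -0.16 (limma adjusted p 0.00512, 0.82 and 0.201). The summed intensity of the fibroblast list was 1210 to 1370 in Pak1 -/- and 1000 to 1050 in Pak1 +/+ samples, and the part of such cells in the results below was not tested.

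Mouse chromosomes carry the centromere at one end, and positions run from there to the far telomere. Chromosome 12 is known for 3 gene clusters near its far end: the Serpina protease inhibitors, the imprinted Dlk1-Dio3 region and the immunoglobulin heavy chain locus. Between them and the centromere lie genes of general use in dividing cells, for DNA repair, nucleotide supply and protein synthesis, and regulators such as Hif1a and Fos. Neighbouring genes may share a promoter region or respond to the same signal. The sequences of 2 pairs of neighbours are shown, picked because each pair moved together. Other neighbours did not, such as Plekhh1 at 0.57 and Pigh at -0.71. How often neighbours moved together was not counted, and a shared cause was not tested.

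The first pair is Gen1, an endonuclease that cuts recombination intermediates, and Smc6, a subunit of a chromosome maintenance complex. They are read in opposite directions from start sites that the RefSeq table places 78 bases apart, at chr12:11265808-11265885 of GRCm38.p6 between them. The stretch between both start sites, on the plus strand, is the following.
Gen1 and Smc6: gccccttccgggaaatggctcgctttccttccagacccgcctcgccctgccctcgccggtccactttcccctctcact
Both genes fell. Gen1 read 9.21 and 9.27 in Pak1 -/- cells and 10.52 and 10.59 in Pak1 +/+ cells, and Smc6 read 12.05 and 11.93 against 13.26 and 13.24. The groups did not overlap for either gene, with log2 differences of -1.31 ± 0.07 and -1.26 ± 0.08 (SE; limma adjusted p 0.00041 and 0.00055).

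The second pair is Rsad2, which encodes the antiviral enzyme viperin, and Cmpk2, a mitochondrial nucleotide kinase, both known interferon-induced genes that lie side by side and are read away from each other. The 250 bases before each start site are given from RefSeq (GRCm38.p6), Rsad2 from the minus strand at chr12:26456453-26456702 and Cmpk2 from the plus strand at chr12:26468965-26469214. Capitals mark a match, on either strand, to GAAANNGAAA, the letters of a simple interferon response element.
Rsad2: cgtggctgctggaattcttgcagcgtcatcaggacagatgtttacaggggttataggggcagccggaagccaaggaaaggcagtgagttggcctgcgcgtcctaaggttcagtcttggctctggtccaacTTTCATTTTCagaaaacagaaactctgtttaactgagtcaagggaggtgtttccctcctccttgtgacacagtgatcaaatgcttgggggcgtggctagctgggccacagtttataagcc
Cmpk2: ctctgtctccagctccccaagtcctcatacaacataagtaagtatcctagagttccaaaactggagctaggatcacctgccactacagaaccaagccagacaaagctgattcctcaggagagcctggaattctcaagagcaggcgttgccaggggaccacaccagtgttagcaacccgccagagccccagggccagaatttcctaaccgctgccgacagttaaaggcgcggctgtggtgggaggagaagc
In Rsad2 the match starts 120 bases before the start site, and the Cmpk2 stretch holds none. Of the 9 measured genes of the interferon and NF-kB group described below, 6 had an entry of 300 bases in the promoter table and only Rsad2 held these letters, which stand in 1131 of all 32851 entries (3.44%). A match is a description of letters and not a site. Both genes rose, and they were among the largest increases on the chromosome: Cmpk2 read 12.03 and 12.10 in Pak1 -/- cells against 6.95 and 7.0 in Pak1 +/+ cells, a log2 difference of 5.09 ± 0.07 (SE; limma adjusted p 4.2e-05). Its probe was well above background on 3 of the 4 arrays, and a second Cmpk2 probe gave 3.98.

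Over the whole chromosome, most probes were lower in Pak1 -/- cells. The median log2 difference of the 1002 probes was -0.26, with the middle of the distribution between -0.66 and 0.05, while the median of all probes on the array was -0.05. Past a limma adjusted p of 0.05 were 461 probes that were lower and 138 that were higher, or 46.0% and 13.8%. On the whole array 28.6% of probes were lower and 23.3% higher by the same rule. Below 0 were 71.9% of the probes of chromosome 12 and 55.0% of all probes. Both Pak1 -/- arrays lay below both Pak1 +/+ arrays for 61.3% of the chromosome's probes and for 43.5% of all probes.

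The shift was seen on each array. The median deviation of the chromosome's probes from the mean of the 4 arrays was -0.129 and -0.132 in the Pak1 -/- samples and 0.147 and 0.115 in the Pak1 +/+ samples. Both Pak1 -/- arrays thus lay on one side and both Pak1 +/+ arrays on the other, and samples of one group differed by far less than the groups did. The medians of the next chromosomes in order were close to that of chromosome 12, namely -0.25 for chromosome 18, -0.20 for chromosome 5 and -0.19 for chromosome 19, and the highest was 0.22 for chromosome 4. No test set these chromosomes apart from each other, and the low median is not called particular to chromosome 12.

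**Figure D1:**
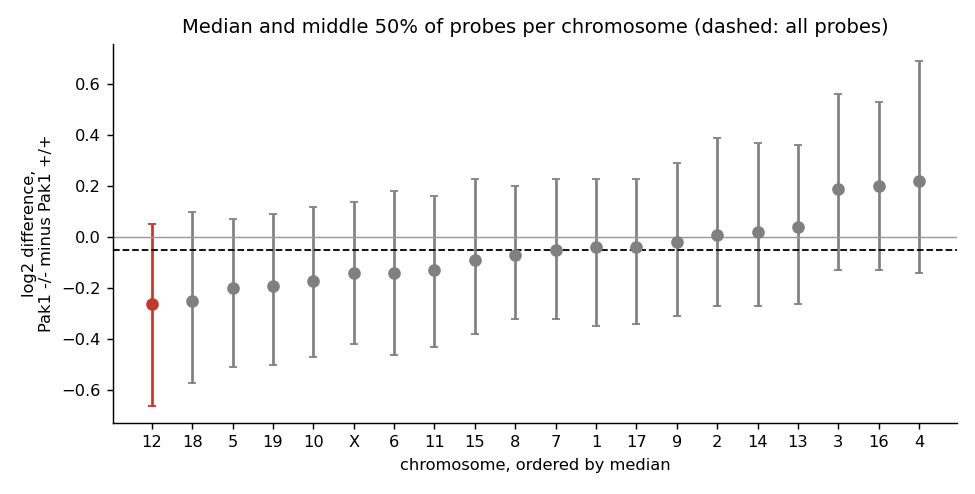
The log2 difference between Pak1 -/- and Pak1 +/+ cells (y axis) for the probes of each of 20 chromosomes, ordered by median (x axis). Points are medians, bars run from the 25th to the 75th percentile of probes and the dashed line is the median of all probes, -0.05. Chromosome 12 stands first with -0.26, next to chromosome 18 with -0.25.

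Along the chromosome the shift was not even. Cut into bins of 10 Mb from position 1, it ran lowest between 60 and 80 Mb and was smaller in the far end, where the median past 110 Mb was close to that of the whole array. The first 10 Mb had a median of -0.21 over 63 probes, and the bins from 10 to 60 Mb had medians of -0.40, -0.29, -0.31, -0.36 and -0.38 over 20 to 84 probes each. From 60 to 70 Mb the median was -0.54 over only 19 probes, and from 70 to 80 Mb it was -0.51 over 128. From 80 to 90 Mb it was -0.24 over 175 probes, from 90 to 100 Mb it was -0.29 over 23, and from 100 to 110 Mb it was -0.10 over 121. From 110 to 120 Mb, the best filled bin after that of 80 to 90 Mb, it was -0.04 over 157 probes. The last piece, past 120 Mb, held 6 probes with a median of 0.45, too few to rank.

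The calls followed the same course. Between 70 and 80 Mb, 83 of 128 probes were lower and 6 higher, and 88.3% lay below 0. Between 110 and 120 Mb, 38 of 157 were lower and 33 higher, shares of 24.2% and 21.0% that resemble those of the whole array. In stretches set after the values were seen, the first 80 Mb had a median of -0.37 over 520 probes with 288 lower and 58 higher. The 284 probes past 100 Mb had a median of -0.07 with 81 lower and 58 higher. The probes from 80 to 100 Mb belong to neither stretch and lay in bins with medians of -0.24 over 175 probes and -0.29 over 23.

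In each of the 12 bins with at least 10 probes, both Pak1 -/- arrays had a lower median deviation than both Pak1 +/+ arrays. The same order held over all probes of the array, at -0.0224 and -0.0346 against 0.0262 and 0.021. Between 70 and 80 Mb the Pak1 -/- arrays lay at -0.264 and -0.271 and the Pak1 +/+ arrays at 0.276 and 0.232. Between 110 and 120 Mb they lay at -0.0239 and -0.0471 against 0.0198 and 0.0141, a gap about the size of that over all probes. Medians of the difference between the 2 samples of one group ranged from -0.04 to 0.10 over these bins.

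**Figure D2:**
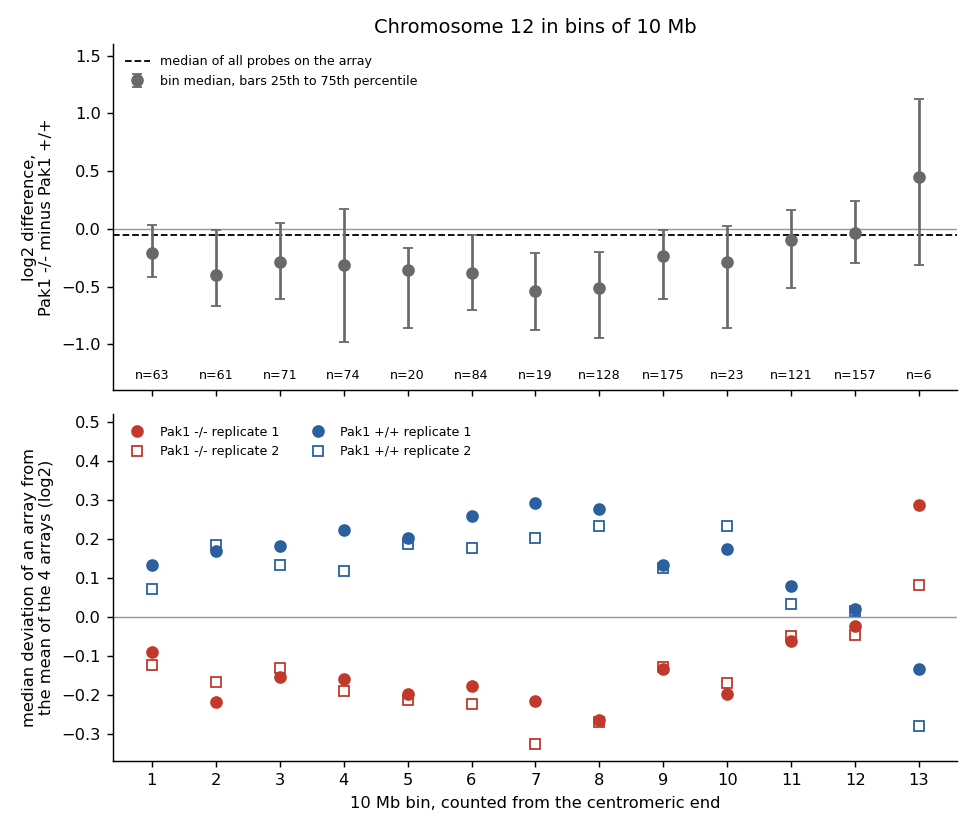
Chromosome 12 in bins of 10 Mb (x axis, bin 1 at the centromeric end). The upper panel gives the median log2 difference with bars from the 25th to the 75th percentile and the number of probes, and the lower panel the median deviation of each array from the mean of the 4 arrays; bins 7 and 8 are lowest, at -0.54 and -0.51, and bin 12 is at -0.04.

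Finer bins gave a less even course. In bins of 5 Mb the medians from 0 to 90 Mb ran from -0.65 to -0.21, and the stretch from 90 to 95 Mb reached -0.73 over 16 probes. The next one, from 95 to 100 Mb, held 7 probes with a median of 0.32, none of them lower and 3 higher. The bin of 90 to 100 Mb was thus a mixture of a low part and a part that was not low. The far end was uneven. From 100 to 105 Mb the median was -0.04 over 68 probes. From 105 to 110 Mb it was -0.26 over 53, with 23 lower and 7 higher, after which the medians to 120 Mb were -0.07 and -0.01. Between 90 and 95 Mb stand Dio2, an enzyme that activates thyroid hormone, at -1.26, the endocytic adaptor Ston2 at -2.57, and Sel1l, which serves the breakdown of misfolded proteins in the endoplasmic reticulum, at -0.88. All 3 passed the test (limma adjusted p 0.0061, 0.00011 and 0.0015), and Dio2 was named after its value was seen. Between 95 and 100 Mb, Flrt2, a membrane protein that guides cell adhesion, was higher by 0.33 and the phosphatase Ptpn21 by 0.70 (limma adjusted p 0.018 and 0.011).

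Compared with other chromosomes, the bins of chromosome 12 were low and moderately spread. Of 271 bins with at least 10 probes on all chromosomes, 5 of the lowest 10 and 8 of the lowest 20 were on chromosome 12, and the lowest bin elsewhere, on chromosome 18, was at -0.44. The difference between its highest and lowest bin was 0.51, the fifth widest of 20 chromosomes, which ranged from 0.21 to 0.91 on chromosome 4. Chromosome 18, with nearly the same overall median, had bins between -0.44 and -0.13. These are descriptions, and no test of a difference between chromosomes was run.

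Brightness moved with the shift. The probes were also split by mean intensity into 3 classes of equal size over the whole array. The median difference on chromosome 12 was -0.11 in the dimmest class and -0.34 in both other classes, against -0.02, -0.08 and -0.08 for all probes. Of the 1002 probes 884 were well above background on all 4 arrays, 63 on 3 and 55 on 2. The 55 just inside the rule had a median level of 6.93 and a median difference of -0.04, and the 92 just outside it, above background on 1 array, had 6.72 and 0.04. Many probes of the far end were too dim to be kept. Of 159 probes between the first and the last immunoglobulin heavy chain probe (chr12:114496985-117219055), 29 were kept, with a median of -0.06, and 19 of the 29 were above background on every array. In the probes brighter than the array's median alone, at or above a mean log2 intensity of 10.44, the bins of the first 80 Mb had medians from -0.62 to -0.32, those of 80 to 90 and 90 to 100 Mb had -0.24 and, over only 7 probes, 0.06, and those of 100 to 110 and 110 to 120 Mb had -0.05 and -0.04. This split was chosen after the values were seen, and the part of brightness in the shift was not tested.

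Taken gene by gene, with the brightest probe standing for each gene, the chromosome had 815 genes, with a median difference of -0.23 against -0.05 for 22014 genes of the whole array. Lower were 359 genes (44.0%) and higher were 117 (14.4%), where 28.2% and 22.8% of all genes were lower and higher. Most decreases were small, since 263 of the 359 genes were less than 2-fold lower and 96 were at least 2-fold lower, while 30 genes were at least 2-fold higher. A running median of 31 genes lay below the median of all genes in 663 of 785 windows along the chromosome. Split at 80 Mb, the boundary set after the values were seen, these were 388 of 391 windows before it and 275 of 394 past it. The running median was lowest, at -0.82, over chr12:60128916-70684932, where 24 of 31 genes were lower and none was higher.

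That stretch holds genes with unlike roles. Fancm, a DNA translocase of the Fanconi anaemia pathway (chr12:66232171-66232230), read 10.61 and 10.50 in Pak1 -/- cells and 12.12 and 11.95 in Pak1 +/+ cells. The groups did not overlap, with a log2 difference of -1.48 ± 0.09 (SE; limma adjusted p 0.00059). Other neighbours, named after their values were seen, were Fkbp3, a prolyl isomerase, at -1.32, Lrr1, a substrate adaptor of a ubiquitin ligase, at -1.66, and the small GTPase Arf6 at -0.70. All 3 were lower (limma adjusted p 0.00038, 0.00077 and 0.0017). The highest running median, 0.07, lay over chr12:96310121-102188059, where 8 of 31 genes were lower and 6 higher.

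**Figure D3:**
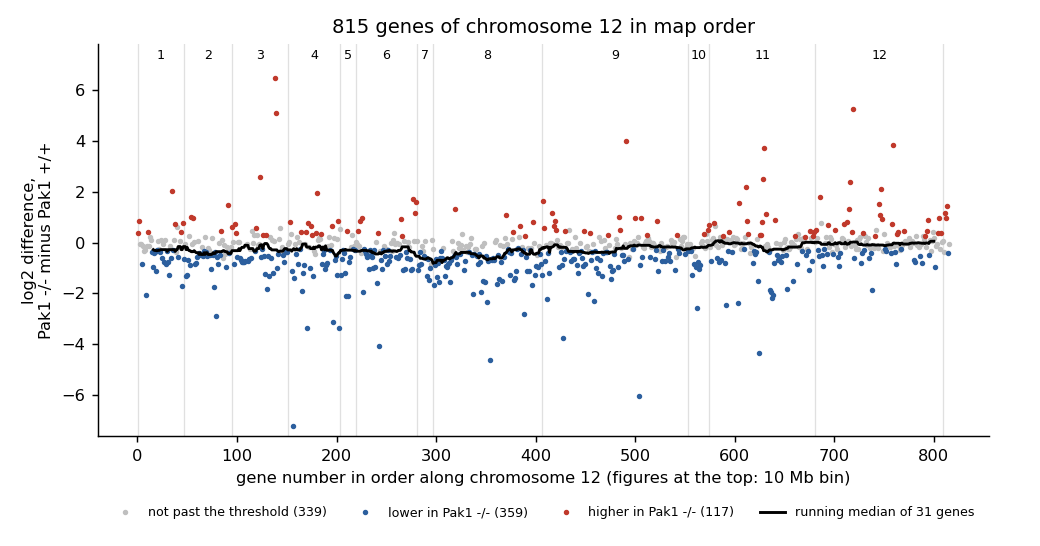
Log2 difference (y axis) of 815 genes in their order along chromosome 12 (x axis, gene number), coloured by the limma call, with a running median of 31 genes as a black line and bin numbers at the top. The line is lowest, at -0.82, around gene 297 and highest, at 0.07, around gene 583, while the extreme single genes are Alkal2 and Rsad2, each not well above background in 1 group, so that their plotted values are not exact.

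Single genes moved far more than the regional shift. The largest decrease was in Alkal2, a ligand of the ALK and LTK receptors. It read 13.55 and 13.37 in Pak1 +/+ cells and was not well above background in either Pak1 -/- sample, at 6.30 and 6.23. It was at least 115-fold lower in Pak1 -/- cells. Its probe was kept only through the Pak1 +/+ arrays, so its limma adjusted p of 4.2e-05 is a description and not support. The transporter gene Flvcr2 (chr12 bin of 80 to 90 Mb) read 8.95 and 9.28 in Pak1 -/- cells and 15.19 and 15.09 in Pak1 +/+ cells. The log2 difference was -6.03 ± 0.13 (SE; limma adjusted p 6.1e-05), or 65.2-fold, the largest among genes measured on all 4 arrays.

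Asb2, the substrate-binding part of a ubiquitin ligase, read 7.65 and 7.31 against 11.76 and 11.93, and Egln3, an oxygen-sensing hydroxylase that marks Hif proteins for destruction, read 9.05 and 9.68 against 13.59 and 13.30. For Asb2 and Egln3 the log2 differences were -4.36 ± 0.14 and -4.08 ± 0.24 (SE; limma adjusted p 0.00012 and 0.00048), and the second Egln3 probe gave -3.65. Others among the 10 largest decreases were Etv1, an ETS transcription factor, at -3.37, the protein kinase A subunit Prkar2b at -3.36, the tetraspanin Tspan13 at -3.14, the proton pump subunit Atp6v1c2 at -2.90, beta-spectrin Sptb at -2.82 and Ston2 at -2.57. The 10 lay in 7 of the bins and in both the low stretch and the far end.

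The largest increases lay in both stretches as well. Rsad2 read 13.18 and 13.38 in Pak1 -/- cells and was not well above background in Pak1 +/+ cells, at 6.69 and 6.96. It was thus at least 85.2-fold higher in Pak1 -/- cells. Its probe was kept only through the Pak1 -/- arrays, so its limma adjusted p of 5.5e-05 is a description and not support. Ckb, the brain form of creatine kinase, read 13.50 and 13.46 in Pak1 -/- cells and 8.35 and 8.12 in Pak1 +/+ cells. The log2 difference was 5.25 ± 0.10 (SE; limma adjusted p 5.3e-05), or 38.0-fold, and a second probe gave 3.99. Pgf, placental growth factor, a ligand of the VEGF family, read 12.45 and 12.75 against 8.59 and 8.65. Crip1, a small LIM protein, read 14.94 and 14.47 against 10.84 and 10.90. Their log2 differences were 3.98 ± 0.12 and 3.83 ± 0.17 (SE; limma adjusted p 0.00011 and 0.00024).

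Others among the 10 largest increases were the predicted gene Gm5811 at 2.57, LOC100047183 at 2.09, the bone morphogenetic protein relative Gdf7 at 2.04 and the transcript ENSMUST00000101487 at 1.96. Of genes dim in 1 group, Rin3, an activator of Rab5, and the transcript ENSMUST00000061000 were at least 2.72-fold and 2.75-fold higher, Ppp4r4, a phosphatase subunit, at least 1.78-fold and 4921506M07Rik at least 1.72-fold. Lower were 3830431G21Rik, at least 11.7-fold, Dpf3, a chromatin remodelling subunit, at least 3.79-fold, Serpina1d, at least 3.61-fold, and LOC100046614, at least 1.59-fold. In total 24 probes of the chromosome were kept only through the Pak1 -/- arrays and 9 only through the Pak1 +/+ arrays. Those of them that differed passed the filter through the group in which they were brighter. Without these probes, a count added after the values were seen, 452 probes were lower and 125 higher, with a median of -0.27.

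**Figure D4:**
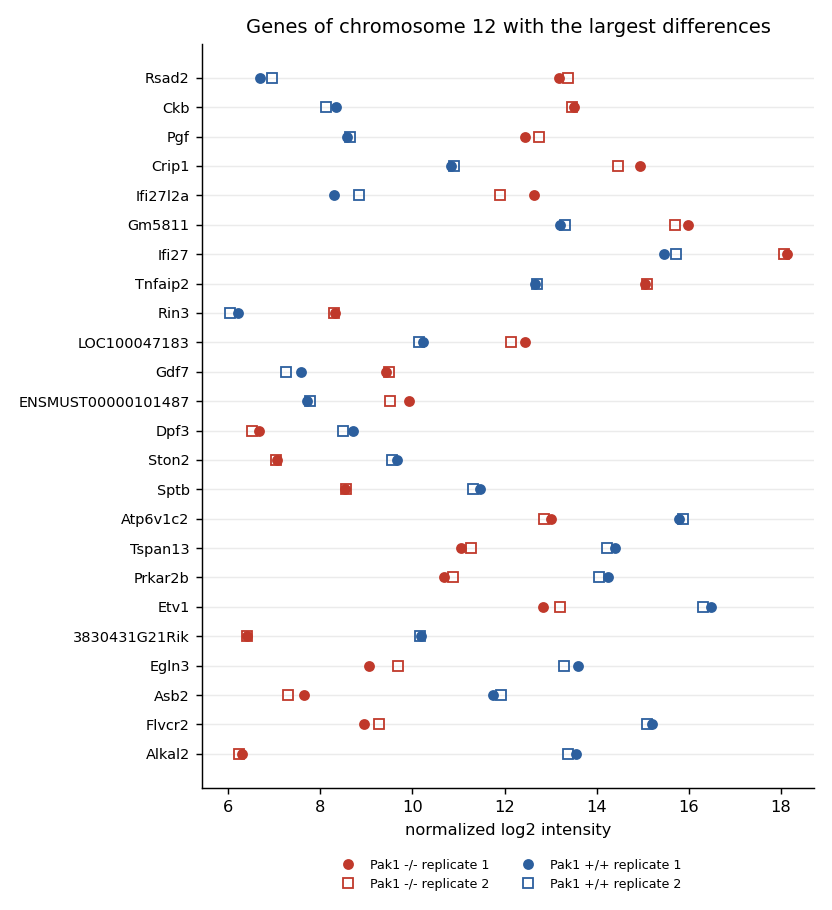
Normalized log2 intensity (x axis) of the genes of chromosome 12 with the largest differences (y axis), with 1 symbol per sample. The genes were picked for their large differences, so that the gap between the groups follows from the choice and is not a finding. Alkal2 and Rsad2 are the extremes, at 6.23 to 13.55 and 6.69 to 13.38.

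Gene groups on the chromosome moved in unlike ways, though 76 of 150 measured group genes were lower and 32 higher. The 12 groups were written from general knowledge, with earlier results of these data known. Their counts are to be read against the shares of chromosome 12 itself, 44.0% of genes lower and 14.4% higher. Over all genes of the array, 28.2% were lower and 22.8% higher. The median of the group genes was -0.28, and that of the other 665 genes was -0.21. The counts include 5 genes kept only through the arrays of 1 group (Rsad2, Ppp4r4, Alkal2, Serpina1d and Meg3), and the groups that hold them are given without them as well, apart from the imprinted cluster, of which Meg3 and Mirg were the only genes measured.

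**Figure D5:**
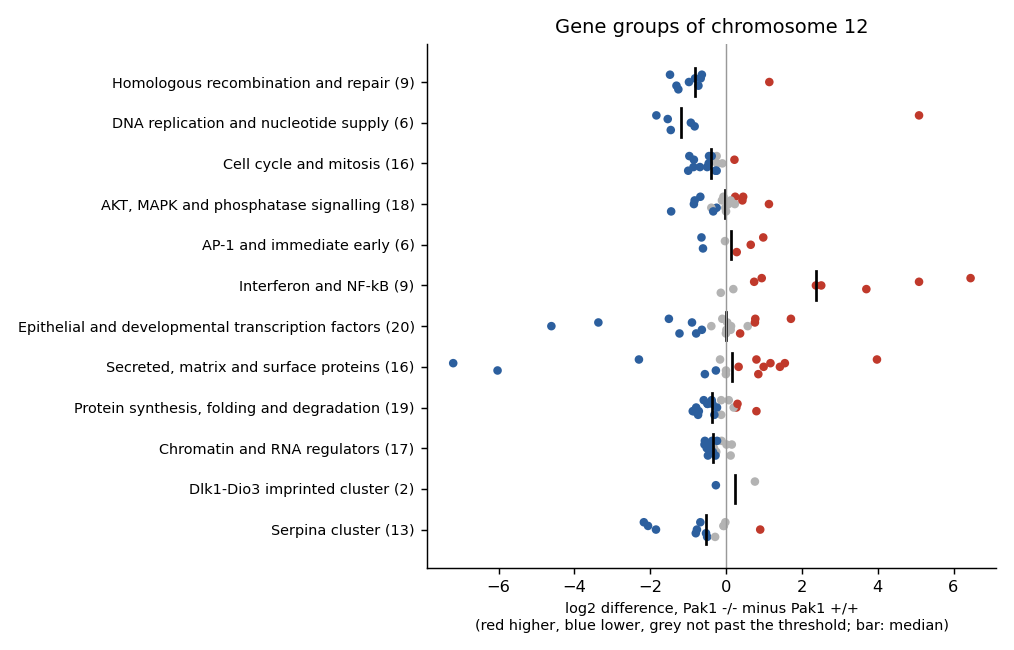
Log2 differences (x axis) of the measured genes of 12 groups (y axis, number of genes in brackets), red for higher, blue for lower and grey for genes not past the threshold, with the group median as a bar. Repair and replication genes lie mostly below 0, with medians of -0.82 and -1.19, and the interferon and NF-kB genes above it, with a median of 2.37.

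In homologous recombination and repair, 8 of 9 genes were lower and 1 higher, with a median of -0.82. Besides Fancm, Gen1 and Smc6, the lower genes were Xrcc3, a recombination gene, at -0.82, the nuclease Exd2 at -0.98, the demethylase Alkbh1 at -0.73, the phosphodiesterase Tdp1 at -0.67 and the mismatch repair gene Mlh3 at -0.64. Xrcc3 read 10.71 and 10.76 in Pak1 -/- cells against 11.57 and 11.53 (limma adjusted p 0.0012). It lies past 110 Mb, outside the low stretch.

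Of 6 genes for DNA replication and nucleotide supply, 5 were lower and 1 higher. Rrm2, the small subunit of ribonucleotide reductase, which makes deoxyribonucleotides, read 14.99 and 15.02 against 16.95 and 16.73. The log2 difference was -1.84 ± 0.10 (SE; limma adjusted p 0.00040). The DNA polymerase epsilon subunit Pole2 differed by -1.54, the folate enzyme Mthfd1 by -1.46, the checkpoint protein Cinp by -0.93 and Odc1, the first enzyme of polyamine synthesis, by -0.83 (limma adjusted p 0.00052, 0.00029, 0.0034 and 0.0014). The gene that rose was Cmpk2, which is counted in the interferon group too.

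Cell cycle and mitosis genes were lower in 11 of 16 and higher in 1, with a median of -0.41. The condensin subunit Ncapg2 was at -0.97 and Mycn at -0.86, both named after their values were seen, and Max, the partner of Myc proteins, at -0.28 (limma adjusted p 0.030). The call of Max was lost without any 1 of the 4 arrays (limma adjusted p 0.076 to 0.16) and with cyclic loess (0.11). The 1 higher gene, the cyclin Ccnk, was at 0.22 with a limma adjusted p of 0.048, a call lost without any 1 of the 4 arrays. The letters of a simple E2F site, TTTCCCGC, on either strand, stand in 3 of 15 promoter entries of these genes (Lin52, Ncapg2 and Siva1) and in 1.07% of all entries. A variant, TTTGGCGC, stands in Mycn here, in Pole2 of the replication genes and in 0.514% of all entries. Neither stands in the 8 entries of the repair genes. Siva1, which holds the first of them, was not past the threshold, at -0.1 (limma adjusted p 0.48). Here too a match is a description of letters and not a site.

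The interferon and NF-kB group was mostly higher, with 7 of 9 genes higher, none lower and a median of 2.37. Without Rsad2, which was kept only through the Pak1 -/- arrays, 6 of 8 were higher and none lower, with a median of 1.66. Its members are spread from the bin of 20 to 30 Mb to the far end. Ifi27l2a and Ifi27, interferon-induced genes that lie near each other, read 12.65 and 11.90 against 8.30 and 8.84, and 18.12 and 18.07 against 15.47 and 15.71. The log2 differences were 3.70 ± 0.31 and 2.51 ± 0.10 (SE; limma adjusted p 0.0012 and 0.00021), while another gene of the cluster, Ifi27l2b, dim at 7.47 to 7.81, differed by -0.14 (limma adjusted p 0.36). Tnfaip2, a gene induced by tumour necrosis factor, was higher by 2.37, Nfkbia, the inhibitor of NF-kB, by 0.94 and Traf3, a signalling adaptor, by 0.74 (limma adjusted p 0.00010, 0.0013 and 0.0047). Irf2bpl differed by 0.19 (limma adjusted p 0.19).

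Leukocyte markers were measured beside these genes. Of 8 markers 5 were well above background on all arrays, and the summed intensity of the list was 50700 and 72900 in the Pak1 -/- samples against 41500 and 46400 in the Pak1 +/+ samples, mostly from Itgam. The pan-leukocyte gene Ptprc was lower in Pak1 -/- cells, by 0.45 (limma adjusted p 0.0056), and neither Cd53 nor Laptm5 was measurable on any of the 4 arrays. Itgam and Cd3e differed by 0.49 and 0.25, and Cd68 and Ighm by -0.2 and -0.1. None of these passed the threshold (limma adjusted p 0.11, 0.0857, 0.212 and 0.398). The part of such cells in the interferon genes was not tested.

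Signalling genes did not share a direction. Of 18 AKT, MAPK and phosphatase genes, 4 were higher and 6 lower, with a median of -0.04, or 3 and 6 of 17 without Ppp4r4. Akt1, the kinase downstream of PI3-kinase, read 17.07 and 17.13 in Pak1 -/- cells and 16.87 and 16.84 in Pak1 +/+ cells. Its difference of 0.24 passed the test (limma adjusted p 0.041), but was -0.01 and -0.03 under 2 other scalings and was not past the threshold without any 1 of the arrays. The protein kinase C form Prkch, in the low stretch, was lower by 1.45 on the log2 scale (limma adjusted p 0.0013).

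Of 6 measured AP-1 and immediate early genes, 3 were higher and 2 lower, and Batf was not well above background on any array. Fos, which EGF induces within minutes, read 15.53 and 14.97 in Pak1 -/- cells and 14.32 and 14.22 in Pak1 +/+ cells, a log2 difference of 0.98 ± 0.20 (SE; limma adjusted p 0.015). The RNA-binding protein Zfp36l1 was higher by 0.65 and Klf11 by 0.28, while Ifrd1 was at -0.65 and Id2, an inhibitor of helix-loop-helix factors, at -0.61, and Jdp2 was at -0.03 (limma adjusted p 0.011, 0.044, 0.0025, 0.018 and 0.71). The calls of Id2 and Klf11 were lost when 1 array was left out, Id2 without Pak1 -/- replicate 1 or Pak1 +/+ replicate 1 and Klf11 without any 1 of the 4.

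Of 20 measured epithelial and developmental transcription factors, 4 were higher and 7 lower, with a median near 0. Besides Etv1, Hif1a, the oxygen-regulated factor, was lower. It read 11.44 and 11.49 against 13.03 and 12.92, a difference of -1.51 ± 0.08 (SE; limma adjusted p 0.00033), and it lies 70 to 80 Mb along the chromosome, in the low stretch. Twist1, a factor of mesenchymal cells, was at -0.90 (limma adjusted p 0.0011). Foxa1, a pioneer factor of luminal mammary cells, was the highest, with 13.10 and 13.50 against 11.58 and 11.59 and a difference of 1.71 ± 0.15 (SE; limma adjusted p 0.0012). Ahr and Yy1 differed by -0.10 and 0.0077 (limma adjusted p 0.42 and 0.95).

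Secreted, matrix and surface proteins moved both ways, with 8 of 16 measured genes higher and 5 lower, or 8 and 4 of 15 without Alkal2. Next to Pgf, the elastic fibre protein Fbln5 was higher by 1.55, the integrin Itgb8 by 1.17 and Macc1, a regulator of Met, by 1.42 (limma adjusted p 0.00033, 0.0013 and 0.0015), of which Fbln5 and Itgb8 were named after their values were seen. Itgb8 and Macc1 lie past 120 Mb. Alkal2 and Flvcr2, described above, were the lowest members and Pgf the highest.

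In the groups of widely expressed genes the decreases were small. Of 19 genes for protein synthesis, folding and degradation, 12 were lower and 3 higher, with a median of -0.36 and a range from -0.88 for Sel1l to 0.80 for the RNA helicase Ddx24. Hsp90aa1, the inducible cytosolic chaperone, differed by 0.20 (limma adjusted p 0.066), with the sign turned under 3 other scalings. Of 17 chromatin and RNA regulators, 11 were lower and none was higher, with a median of -0.35 and a range from -0.57 for the splicing factor Snw1 to 0.15 for Rcor1. The DNA methyltransferase Dnmt3a differed by -0.12 and Dicer1, which cuts microRNA precursors, by 0.01 (limma adjusted p 0.44 and 0.91).

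The clusters of the far end were mostly dim. In the Serpina cluster, between 100 and 110 Mb, 8 of 13 measured genes were lower and 1 higher, with a median of -0.53, or 7 and 1 of 12 without Serpina1d. Serpina1a, a form of alpha-1-antitrypsin, was at -2.17 with a second probe at -0.69, and Serpina11 was at 0.90 (limma adjusted p 0.00030 and 0.0015). The Serpina1 genes are near-identical copies, so that a probe may read more than 1 of them and their single values are uncertain. In the imprinted cluster, Dlk1, Dio3 and Rtl1 were well above background on at most 1 array. The noncoding RNA Meg3 read 6.93 and 7.49 in Pak1 -/- cells and was not well above background in Pak1 +/+ cells, at 6.18 and 6.72, a bound of at least 1.27-fold that did not pass the test (limma adjusted p 0.067). The limma adjusted p was 0.019 with the Agilent processed signal, 0.044 with the deposited values, 0.0039 with the replicate number as a block and 0.036 without Pak1 +/+ replicate 2, each time against a group in which the probe was not well above background. Mirg was at -0.27 (limma adjusted p 0.034), a call lost without any 1 of the arrays.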

How the data were processed

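Total RNA of 4 samples was measured on 1-colour (Cy3) Agilent arrays. The deposited scanner files, made with Feature Extraction 9.5.3.1 per their headers, give linear intensities and flags per spot and were not normalized between arrays. The authors also deposited log2 values of the same arrays, normexp corrected and quantile normalized per their methods, in 24008 of 39485 rows, and these served as an alternative. From the scanner files, background was corrected with normexp (offset 50) in limma 3.58.1 (R 4.3.3), control spots were left out, log2 values were quantile normalized, outlier spots were dropped, and the remaining spots of a probe were averaged. Probes well above background on at least 2 arrays were kept. Genotype was tested with limma's lmFit and eBayes, two-sided, with Benjamini-Hochberg adjustment over 27229 probes and a threshold of 0.05; the steps were tested on simulated data. The prior added 2.62 to 2 residual degrees of freedom. No exact permutation test was run, since with 2 samples a group its smallest p is 0.333.

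Samples came from different tumours, 2 per group, per the design text of the series. The members and gene lists were chosen with earlier results of these data known. Coordinates are mm9 as in the files, without gene models, so exon or UTR positions are not given. Names came from RefSeq accessions (GRCm38.p6 table; 661 of 829 kept chromosome 12 probes with an accession matched), otherwise from the files. A gene was represented by its brightest probe. Named genes were Pak1, the 10 largest increases and decreases on all 4 arrays, up to 5 bounds each way, the extremes of each bin and list, short lists in full and a fixed set of well-known genes. A bound compares the brighter group's mean with, per array, the higher of the dim probe's value and the lowest value well above background. The number of arrays limits the precision. Some named genes and 1 gene group are not reported here.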

Additional observations from a re-analysis of the deposited data

How the results depend on the processing

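Each group held 2 arrays, and no scaling moved the median of all probes by more than 0.1. The medians of the whole chromosome, of its lowest bin and of its highest bin were -0.26, -0.54 and -0.04. In that order they were -0.29, -0.59 and -0.05 with a normexp offset of 0; -0.34, -0.67 and -0.08 with the Agilent processed signal; -0.27, -0.52 and -0.06 with normexp values at a common 75th percentile; -0.19, -0.47 and 0.0098 with cyclic loess, so that the highest bin changed sign; -0.29, -0.54 and -0.07 with arrays centred on the other chromosomes; -0.11, -0.30 and -0.03 with no filter, which adds dim probes; -0.30, -0.63 and -0.07 with probes above background on all 4 arrays; -0.27, -0.57 and -0.01 with the deposited values; and -0.23, -0.63 and -0.03 with 1 probe per gene. In the probes brighter than the array's median, a choice made after seeing the data, they were -0.34, -0.62 and -0.04, and without probes kept only through the arrays of 1 group, also chosen then, -0.27, -0.58 and -0.06. Among bins with at least 10 probes, bins of 5 Mb gave -0.73 and -0.01 for the lowest and highest bin, bins starting 5 Mb later gave -0.58 and -0.01, and leaving out the Serpina and immunoglobulin clusters gave -0.54 and -0.03. The lowest bin lay at 60 to 80 Mb except with the Agilent processed signal (40 to 50 Mb) and with bins of 5 Mb (90 to 95 Mb). Leaving out 1 array gave -0.27 to -0.25, -0.60 to -0.49 and -0.08 to -0.04. An adjusted p under 0.01 left 83 probes higher and 316 lower, and a further requirement of 2-fold at 0.05 left 35 and 121, against 138 and 461; leaving out 1 array left 94 to 123 higher and 346 to 388 lower. The cause of these differences was not tested.

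With the replicate number as a block, 131 probes were higher and 444 lower, of which 429 were lower without the block too. The replicate numbers did not pair the samples (r of the replicate differences -0.0628 over 1002 probes), so the block has no basis in the design. Among 90 named genes, 1178 of 1241 values under other settings gave the same sign and call, 41 lost the call, 6 gained it and 16 changed sign. The sign changed for Akt1 (-0.01 at a common 75th percentile, -0.03 after centring on the other chromosomes) and for genes that had no call: Dicer1 (-0.04 with the processed signal, -0.0073 and -0.02 with those scalings, -0.08 to 0.10 without 1 array), Hsp90aa1 (-0.09, -0.05 and -0.07), Yy1 (-0.02 with the processed signal, -0.0065 with centring, -0.06 to 0.08 without 1 array), Jdp2 (0.07 with cyclic loess), Ahr (0.03 as the mean of its probes) and Dnmt3a (-0.26 to 0.02 without 1 array). The calls gained were those of Meg3 under 4 settings, and of Rcor1 (0.26) and Pak1 (0.27) with cyclic loess. Without 1 array, 23 of 360 values lost the call.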
